A study of Homo sapiens with 32 samples.

Results

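The apolipoprotein L (APOL) family was represented by 5 genes, APOL1, APOL2, APOL3, APOL4 and APOL6, with 11 probe sets among the 54675 on the array and among 19775 genes named by probe sets of 1 gene symbol. The genes were selected on measured values, because APOL4 was already known as the gene whose level followed that of PIM1 in these arrays, and the family was taken to set APOL4 beside its relatives. For each gene the probe set with the highest mean over all lines was used, and the others served as a check. RNA of 32 established cell lines from human acute myeloid leukaemia (AML) was hybridised to Affymetrix expression arrays, with 1 array per line. Most of the lines (21) grew in RPMI 1640 with no cytokine named, 4 in IMDM and 3 in alpha-MEM, F-36P grew in RPMI 1640 with 5 ng/ml IL-3, and no medium was stated for 3 lines. A cytokine was named for 4 lines (F-36P, OCI-AML2, OCI-AML3 and OCI-AML5). The pairs HL-60 with PLB-985 and KG-1 with KG-1A, each of which derives from 1 donor, were averaged, which left 30 units. Every line was grown in culture as a model of AML, so no normal marrow cell stood beside them.

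APOL proteins are amphipathic, lipid-binding proteins. APOL1 is the member secreted into blood, where it rides on high-density lipoprotein and kills African trypanosomes, while the other members lack a secretion signal and stay inside the cell. Interferons and tumour necrosis factor induce several of the genes in endothelial and other cells. PIM1, PIM2 and PIM3 are serine/threonine kinases that support the survival of blood cells, and JAK-STAT signalling downstream of cytokine receptors induces PIM1.

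On the RefSeq annotation of GRCh38.p14 the genes lie on chromosome 22. APOL6 spans chr22:35648446-35668404 and is followed by APOL5 and the splicing factor gene RBFOX2. The other members lie close together, with APOL3 at chr22:36140323-36166177, APOL4 at chr22:36189128-36204833, APOL2 at chr22:36226209-36239954 and APOL1 at chr22:36253133-36267525, next to the myosin gene MYH9. All 5 members passed the filter on low values, which kept 15455 genes. APOL5, a gene of the family that is not among the 5 taken as members here, had a signal under 16 in 30 of the 32 lines.

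Deposited signals were read as log2(signal + 16), which compresses differences near the low end, and every level below is on this scale. The median signal of an array was 68.2 to 115.4 on 30 arrays, but 198.4 on the NOMO-1 array and 243.3 on the GF-D8 array. Those 2 arrays also had few probe sets with a signal under 16, at 5.99% in NOMO-1 and 3.54% in GF-D8, against 16.1 to 24.7% on the others. The GAPDH control's 3′ signal over its 5′ signal, a sign of RNA quality, was above 2 on 8 arrays and between 0.871 and 1.24 on 24. The leukocyte gene PTPRC lay above the array median in all 32 lines and the myeloid genes SPI1 and ANPEP in 28 and 29, with SPI1 not above it in KG-1A, MO7E, NOMO-1 and SET2 and ANPEP not above it in EOL-1, MV4-11 and OCI-AML5. Values that rest on the arrays that stand apart are given below with and without them.

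APOL1, the secreted trypanosome-lytic member, had its lowest level in OCI-AML5 at 4.62, a median of 6.43, and its highest level in OCI-M1 at 11.56. SET2 at 10.06 and HNT-34 at 8.52 came next. The range was 123-fold on the log2(signal + 16) scale, and OCI-M1 and SET2 stood 1.5 log2 units or more above every other line. APOL1 lay above its own array's median in 12 of 32 lines. Each value is an average over a culture, so fewer expressing cells and less RNA per cell cannot be told apart.

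APOL3, an intracellular member that takes part in interferon-driven defence against bacteria, ranged from 4.29 in SKM-1 to 9.89 in SET2, with a median of 6.35. OCI-M1 and NOMO-1 followed SET2, both at 8.94, which leaves their order undecided. The signal was under 16 in 9 lines. The range was 48.7-fold on the same scale.

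APOL2, an intracellular member, had the lowest SD of the main probe sets (0.860), although the APOL6 probe set 219716_at had 0.728. Its level ran from 6.42 in HEL through a median of 7.72 to 10.14 in GF-D8. NOMO-1 at 9.78 and HL-60 at 8.93 came next. The highest levels were those of the 2 arrays with the high median signal, and APOL2 correlated with the log2 array median at r = 0.708, which was 0.276 without NOMO-1 and GF-D8. The part of the array median in the APOL2 levels was not tested.

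APOL6, an intracellular member linked to cell death, ranged from 5.31 in NOMO-1 through a median of 8.44 to 9.92 in OCI-M1, and exceeded the array median in 29 lines. SET2 at 9.63 and KG-1A at 9.51 followed OCI-M1. NOMO-1 and, at 5.74, GF-D8 were the lowest lines on the main probe set, 241869_at. On the other 3 APOL6 probe sets the same lines were not low: NOMO-1 read 8.50, 8.12 and 8.72 and GF-D8 read 9.86, 7.12 and 9.08 on 1557116_at, 1557236_at and 219716_at. Without NOMO-1 and GF-D8 the main probe set correlated with these 3 at r = 0.825, 0.913 and 0.857, and with them at 0.405, 0.499 and 0.350.

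APOL4, the member whose function is least known, ranged from 4.41 in SKM-1 through a median of 6.30 to 9.65 in FKH-1. GF-D8 at 9.50 and OCI-M1 at 9.16 came next, and PL-21 at 4.52 lay just above SKM-1. A signal under 16 was recorded in 9 lines, and 13 lines exceeded their array's median.

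**Figure D1:**
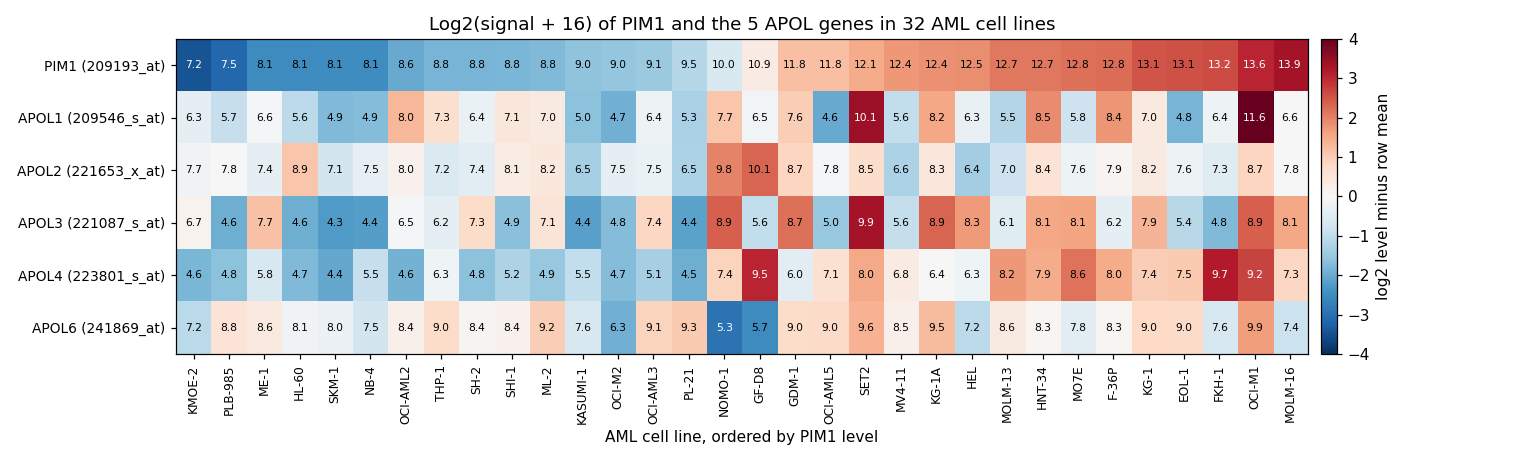
Log2(signal + 16) of PIM1 and of the main probe set of each APOL gene (rows) in each of the 32 lines (columns, in order of rising PIM1), 1 array per line. The printed number is the level and the colour is the level minus the mean of its row. APOL4 is mostly blue on the left and mostly red on the right. The exceptions are NOMO-1, above the row mean on the left, and GDM-1, HEL and KG-1A, below it on the right. In the other APOL rows red and blue lines are more mixed, and NOMO-1 and GF-D8 are low in APOL6 and high in APOL2.

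The 3 probe sets of APOL4 did not read alike. On 1555600_s_at the level ranged from 4.26 in SKM-1 to 11.05 in FKH-1, with MO7E at 10.81 and OCI-M1 at 10.29, and it correlated with the main probe set, 223801_s_at, at r = 0.822 over the 30 units and 0.932 without NOMO-1 and GF-D8. GF-D8, close to the top on the main probe set, read only 5.66 on 1555600_s_at. The remaining probe set, 224491_at, exceeded the array median in 2 lines, NOMO-1 at 8.16 and GF-D8 at 8.04, and correlated with the main probe set at 0.366, or 0.213 without these 2 lines. Which transcripts each probe set matches was not tested.

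The pairs of related lines give a view of how far levels shift between cultures of 1 origin. In PLB-985 and HL-60, APOL2 read 7.83 and 8.93, APOL6 read 8.80 and 8.11 and APOL1 read 5.72 and 5.58, while APOL3 and APOL4 had a signal under 16 in both lines and show no gap that could be read. In KG-1A and KG-1, APOL1 read 8.20 and 7.04, APOL3 8.89 and 7.93, APOL4 6.44 and 7.45, APOL2 8.27 and 8.18 and APOL6 9.51 and 9.03. APOL4 was thus lower, and APOL1 and APOL3 were higher, in KG-1A than in KG-1, and in both pairs some member differed by about 1 log2 unit on the main probe set. On the other APOL2 probe set, 221013_s_at, PLB-985 read 5.94 and HL-60 read 6.52. The GAPDH ratio was 7.08 in HL-60 and 0.933 in PLB-985, and the part of RNA quality in the gaps of this pair was not tested.

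Some lines were high for the whole family. OCI-M1 and SET2 were among the 8 highest lines for all 5 members, and KG-1A was for 4. OCI-M1 held rank 1 for APOL1 and APOL6, rank 2 for APOL3 (level with NOMO-1), rank 3 for APOL4 and rank 4 for APOL2. FKH-1 was the highest line for APOL4 but ranked 17 for APOL1, 25 for APOL2, 26 for APOL3 and 24 for APOL6, so its high level was not shared. OCI-M2, which had a high erythroid score (3.24) beside SET2 (3.58), ranked 31, 22, 25, 27 and 30 for APOL1, APOL2, APOL3, APOL4 and APOL6. HEL was among the 8 highest for APOL3 but had the lowest APOL2 of all lines.

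Across the 30 units APOL1 and APOL3 were the most alike pair of the family, at r = 0.709 and Spearman's rho = 0.709, and r was also 0.709 without NOMO-1 and GF-D8 and 0.636 without OCI-M1 and SET2, the units farthest from the APOL1 median. Among the 15454 genes compared, APOL1 held rank 1 in likeness to APOL3, and rank 4 without NOMO-1 and GF-D8. APOL3 stood at rank 3 for APOL1, and rank 10 without these 2 arrays, after the class II gene HLA-DQA1 (0.745) and DLGAP1-AS2 (0.732). The genes next to APOL1 in likeness to APOL3 were SLC37A1 (0.699) and USP6NL (0.662). APOL1 and APOL2 followed at 0.509, or 0.635 without NOMO-1 and GF-D8. These correlations describe the lines and carry no test, and the genes compared were read on the same arrays with the same scaling.

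The r of APOL4 was 0.383 with APOL1, 0.362 with APOL2, 0.322 with APOL3 and −0.077 with APOL6, or 0.404, 0.195, 0.372 and 0.188 without NOMO-1 and GF-D8. APOL6 was less like the rest over the 30 units, at 0.305 with APOL1, 0.147 with APOL3 and −0.239 with APOL2, and these were 0.497, 0.331 and 0.399 without the 2 arrays. Between APOL1 and APOL4, r was 0.194 without OCI-M1 and SET2. In the list of all genes ordered by likeness to APOL4, APOL1 stood at rank 855, APOL2 at 1088, APOL3 at 1677 and APOL6 at 10298, or at 515, 3235, 749 and 3348 without NOMO-1 and GF-D8. The first 3 places were held by CISH (0.814), which encodes an inhibitor of cytokine receptor signalling that STAT5 induces, by PIM1 (0.811) and by the sodium channel gene SCN9A (0.795). Without NOMO-1 and GF-D8 the same genes held these places, with PIM1 (0.870) at rank 1 and CISH (0.828) at rank 2.

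**Figure D2:**
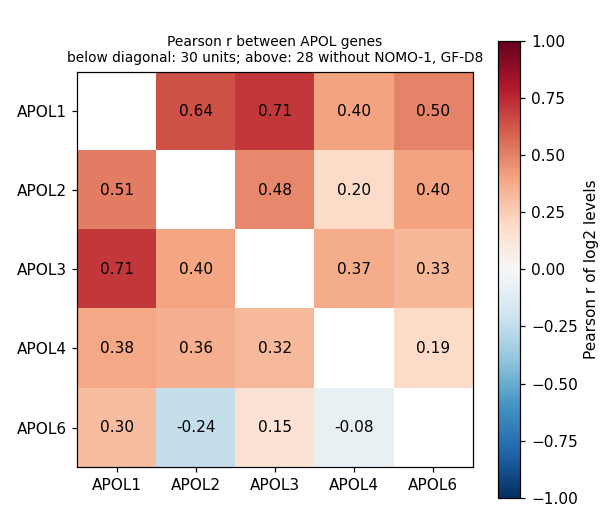
Pearson r between the log2 levels of each pair of APOL genes (rows and columns), below the diagonal over 30 units and above it over the 28 units without NOMO-1 and GF-D8. APOL1 with APOL3 is highest at 0.71 on both sides, the APOL4 values are at or below 0.40, and APOL2 with APOL6 changes from −0.24 to 0.40 when the 2 arrays are left out.

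The genes most like the other members were of other kinds. For APOL2 they were LINC01141 (0.816), CYP2A7 (0.807) and ID4 (0.793), and r was 0.635, 0.674 and 0.622 without NOMO-1 and GF-D8, at ranks 9, 3 and 10. For APOL6 they were the secreted glycoprotein gene CREG1 (0.772), the adaptor gene PAG1 (0.736) and TMEM248 (0.736), and without those 2 lines r was 0.582, 0.700 and 0.509, which put CREG1 at rank 31, PAG1 at rank 5 and TMEM248 at rank 99.

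Against PIM1, the values that chose APOL4 are given as a description with no test. PIM1 itself ranged from 7.16 in KMOE-2 through a median of 10.47 to 13.94 in MOLM-16. In order of rising PIM1, APOL4 read 4.64 in KMOE-2, 4.82 in PLB-985 and 5.83 in ME-1, and at the other end 9.65 in FKH-1, 9.16 in OCI-M1 and 7.30 in MOLM-16. The line with the highest PIM1 therefore did not have the highest APOL4.

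In limma's fit of each gene on the log2 level of PIM1 over the 30 units, the slope (log2 units per log2 unit of PIM1, ± SE) was 0.61 ± 0.083 for APOL4. It was 0.31 ± 0.13 for APOL3, 0.24 ± 0.13 for APOL1, 0.08 ± 0.09 for APOL6 and 0.04 ± 0.08 for APOL2. Over all 15454 genes fitted the median slope was −0.004, and 90% of them lay between −0.16 and 0.18. APOL4 was the only gene called at an adjusted p under 0.05, 1 of 5 members against 0.00647% of all genes, and since this contrast chose the gene nothing is read from that count. Leaving out each unit in turn moved the APOL4 slope between 0.58 and 0.65. Of the other settings, 10 left the APOL4 slope within 1 SE of its value and 4 moved it further, among them the other APOL4 probe sets given below. None of them turned its sign.

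The APOL4 slope exceeded that of APOL2 by 0.57 ± 0.081, that of APOL6 by 0.54 ± 0.15, that of APOL1 by 0.37 ± 0.14 and that of APOL3 by 0.30 ± 0.16 (least squares on the differences, ± SE). The 95% interval of the difference was 0.41 to 0.74 for APOL2, 0.24 to 0.84 for APOL6 and 0.085 to 0.66 for APOL1. For APOL3 it was −0.024 to 0.63 and took in 0, whereas with 1555600_s_at in place of the main APOL4 probe set the difference from APOL3 was 0.49, with an interval of 0.11 to 0.86, and with 224491_at it was −0.29. These intervals describe the gap only, because APOL4 was picked for its slope. Pearson's r with PIM1 ran in the same order, at 0.811 for APOL4 (rho = 0.783), 0.396 for APOL3, 0.319 for APOL1, 0.148 for APOL6 and 0.095 for APOL2.

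**Figure D3:**
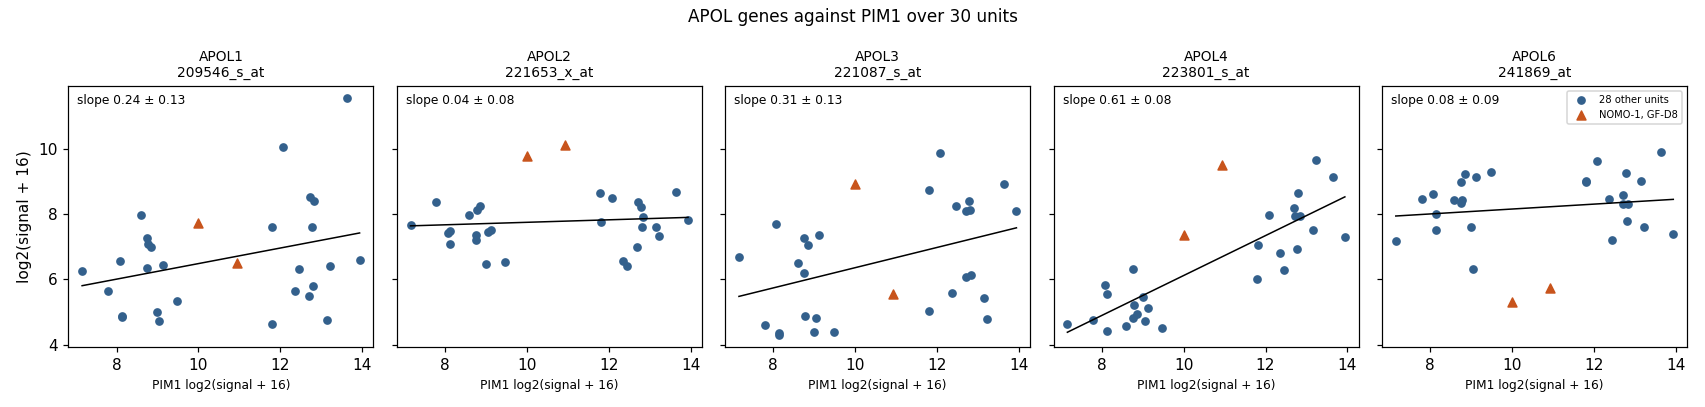
Log2(signal + 16) of each APOL gene (vertical axis, 1 panel per gene) against that of PIM1 (horizontal axis) over 30 units, with NOMO-1 and GF-D8 as triangles and the limma slope ± SE as a line. Points lie nearer the line for APOL4 (slope 0.61) than for APOL3 (0.31) and APOL1 (0.24). The lines for APOL2 (0.04) and APOL6 (0.08) are nearly level, with a scatter around them similar to that of APOL4.

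PIM1 levels were not spread evenly. The largest gap between neighbouring units, 0.937 log2 units, lay between NOMO-1 at 10.00 and GF-D8 at 10.93 and left 15 units on each side. The median APOL4 level on the main probe set was 7.94 in the units above it and 4.95 in those below. Within the 15 units above the gap, r between APOL4 and PIM1 was 0.121, and within the 15 below it was 0.430. GF-D8 and NOMO-1, the arrays that stand apart, bound the gap. Without them the gap was wider, from PL-21 at 9.48 to GDM-1 at 11.80. In that setting, added after seeing the data, r was 0.530 above and 0.060 below. For 1555600_s_at the values were 0.492 above and 0.132 below, or 0.388 and 0.110 without these 2 arrays. A narrower range of PIM1 lowers r by construction, and the order of the 2 sides on the main probe set turned with these arrays, so nothing is read from it.

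By least squares, the slope on PIM1 was 0.80 ± 0.12 for 1555600_s_at, 0.61 ± 0.08 for 223801_s_at and 0.02 ± 0.08 for 224491_at (± SE). The first 2 probe sets thus followed PIM1 and 224491_at, which was low in most lines, did not. Without NOMO-1 and GF-D8 the slopes were 0.79, 0.61 and 0.02. For APOL6 the 3 other probe sets had slopes of 0.06, 0.13 and 0.07, and for APOL2 the other probe set, 221013_s_at, had a slope of −0.02, all close to the main probe sets of those genes.

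**Figure D4:**
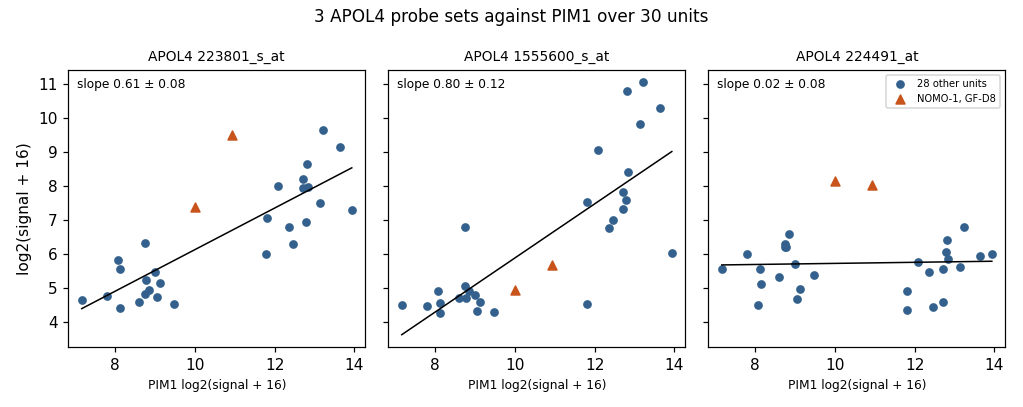
Log2(signal + 16) of each of the 3 APOL4 probe sets (vertical axis) against that of PIM1 (horizontal axis) over 30 units, with NOMO-1 and GF-D8 as triangles and the least-squares slope ± SE as a line. The slopes are 0.61, 0.80 and 0.02, and GF-D8 lies above the line for 223801_s_at and below it for 1555600_s_at.

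Other measures moved with PIM1 beside APOL4. With the interferon score (the mean centred level of 48 interferon-induced genes) in the fit, the PIM1 slope was 0.61 for APOL4, 0.27 for APOL3 and 0.20 for APOL1. With the score of 18 erythroid genes in the fit it was 0.61, 0.18 and 0.12. All 18 erythroid genes had a positive slope on PIM1, against 47.5% of all genes, with a median of 0.31, although 0 of them passed the test. The STAT5 score, from 15 genes that do not include PIM1, correlated with APOL4 at 0.760 and with APOL1 at 0.485. It stood at 0.415 with APOL3, 0.197 with APOL2 and 0.111 with APOL6. Without NOMO-1 and GF-D8 the r was 0.827 for APOL4, 0.510 for APOL1, 0.476 for APOL3 and 0.329 for APOL2. The APOL6 value is from its main probe set, with these 2 arrays included. PIM1 correlated with that score at 0.660. CISH is 1 of the 15 genes, and the part of STAT5 in these relations was not tested.

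Genes near the APOL cluster were compared to see how far the region moved with PIM1. Of 17 neighbours measured on chromosome 22, 14 passed the filter on low values, 9 had a positive slope on PIM1 and 0 were called, with a median slope of 0.05. Over all genes 47.5% had a positive slope. CSF2RB, the shared receptor chain for IL-3, IL-5 and GM-CSF, had a slope of 0.32 ± 0.12 and the heme oxygenase gene HMOX1 had 0.22 ± 0.13. The myoglobin gene MB had 0.19 ± 0.13, the neutrophil oxidase gene NCF4 0.13 ± 0.13 and the mitochondrial thioredoxin gene TXN2 0.09 ± 0.04. MYH9, next to APOL1, had 0.06 ± 0.07, FOXRED2 0.06 ± 0.05, IFT27 0.04 ± 0.08 and MCM5 0.04 ± 0.05. RBFOX2, between APOL5 and APOL3, had −0.02 ± 0.13, and TOM1, HMGXB4, EIF3D and CACNG2 lay between −0.02 and −0.01. APOL5, PVALB and RASD2 did not pass the filter. The neighbours' score correlated with PIM1 at 0.527 and with APOL4 at 0.527.

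PIM2 and PIM3 were not used to choose the genes, and here the members were tested. By PIM2, limma called 229 of 15454 genes at an adjusted p under 0.05 (1.48%), 112 that rose and 117 that fell with PIM2, and 0 of 5 members. When each array was centred on its median instead, 3529 genes rose and 558 fell, and the median slope of all genes was 0.15 against −0.04, so PIM2 results depended on the scaling. APOL1 had a slope of 0.82 ± 0.30 (limma, adjusted p = 0.140) and APOL4 of 0.78 ± 0.31 (limma, adjusted p = 0.173). APOL3 had 0.53 ± 0.34, APOL6 0.20 ± 0.23 and APOL2 −0.07 ± 0.19, with limma adjusted p-values of 0.370, 0.616 and 0.841.

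Single arrays bore on both of the larger PIM2 slopes. OCI-M1 had the highest PIM2 (12.06) and the highest APOL1, and without OCI-M1 the APOL1 slope was 0.29. GF-D8 had the lowest PIM2 (8.17) and the second highest APOL4. Without NOMO-1 and GF-D8 the APOL4 slope on PIM2 was 1.07 ± 0.28 (limma, adjusted p = 0.0485), and it was 1.23 ± 0.28 when the 8 arrays above a GAPDH ratio of 2 were left out (limma, adjusted p = 0.0350). With 1555600_s_at it was 1.54 ± 0.35 over the 30 units (limma, adjusted p = 0.0255). Under 8 other settings the APOL4 slope kept its sign and was not called. Leaving out each unit in turn gave 0.65 to 1.02 (limma, adjusted p = 0.0612 to 0.353). Its r with PIM2 was 0.414, or 0.302 without OCI-M1, and without OCI-M1 limma called 0 genes by PIM2. PIM1 and PIM2 correlated at 0.514, so the PIM2 slope of APOL4 was not independent of PIM1. With median centring APOL1 passed too, at 0.70 ± 0.25 (limma, adjusted p = 0.0375). That setting called a far larger share of all genes, with the counts given above, so nothing is read from this call.

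By PIM3, 88 genes were called (0.569%), 43 that rose and 45 that fell, and 0 of 5 members. With median centring 45 rose and 1 fell. PIM1 and PIM3 correlated at −0.400, so the PIM3 slope of APOL4 was not independent of PIM1. The slope was −0.90 ± 0.48 for APOL1, −0.83 ± 0.50 for APOL3 and −0.51 ± 0.50 for APOL4, with limma adjusted p-values of 0.312, 0.378 and 0.602. By least squares the APOL4 slope was −1.45 ± 0.65 on 1555600_s_at (95% interval −2.78 to −0.12) and −0.05 ± 0.30 on 224491_at. Limma called neither over all genes. The slope on PIM3 was 0.20 ± 0.28 for APOL2 and −0.16 ± 0.35 for APOL6 (limma, adjusted p = 0.731 and 0.833), and the sign of both flipped with median centring.

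The interferon score was used because interferons are known inducers of the family. KMOE-2 had the highest score (2.50) and KASUMI-1 the lowest (−1.20). By this score limma called 91 of 15407 genes outside the list (0.591%), 50 that rose and 41 that fell, and 0 of 5 members. With median centring 683 rose and 189 fell, and the median slope of all genes moved to 0.11 from −0.01. The score moved with erythroid genes as well, of which 17 of 18 had a positive slope (48.6% over all genes) and 3 passed, and the part of cell type in the values below was not tested.

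APOL1 and APOL3 had the steepest interferon slopes in the family, both at 0.97, with an SE of 0.27 for APOL1 and 0.29 for APOL3. Neither passed the test over all genes (limma, adjusted p = 0.0871 for APOL1 and 0.111 for APOL3). Both passed when arrays were centred on their medians (limma, adjusted p = 0.0400 and 0.0471), where the calls over all genes also rose, as given above. They also passed when the 32 arrays were taken as separate samples (limma, adjusted p = 0.0436 and 0.0440). That setting counts lines that share a donor as independent samples, so its p-values may be too small, and it too called more of all genes. KMOE-2 had an APOL1 level of 6.25 and an APOL3 level of 6.68 at the highest score, and without KMOE-2 the slopes were 1.41 for APOL1 (limma, adjusted p = 0.0343) and 1.32 for APOL3 (limma, adjusted p = 0.0610). Without OCI-M1 the APOL1 slope was 0.67 (limma, adjusted p = 0.327). The other members had lower slopes, at 0.24 ± 0.18 for APOL2, 0.21 ± 0.32 for APOL4 and 0.12 ± 0.22 for APOL6 (limma, adjusted p = 0.618, 0.864 and 0.888). By least squares without NOMO-1 and GF-D8, slopes were 0.99 for APOL1, 0.98 for APOL3, 0.312 ± 0.125 for APOL2, 0.28 ± 0.33 for APOL4 and 0.05 ± 0.18 for APOL6. For APOL2 the 95% interval was then 0.054 to 0.569, and r with the score was 0.439 against 0.248 with these arrays. The other APOL2 probe set, 221013_s_at, had a slope of −0.06 ± 0.14 without them.

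**Figure D5:**
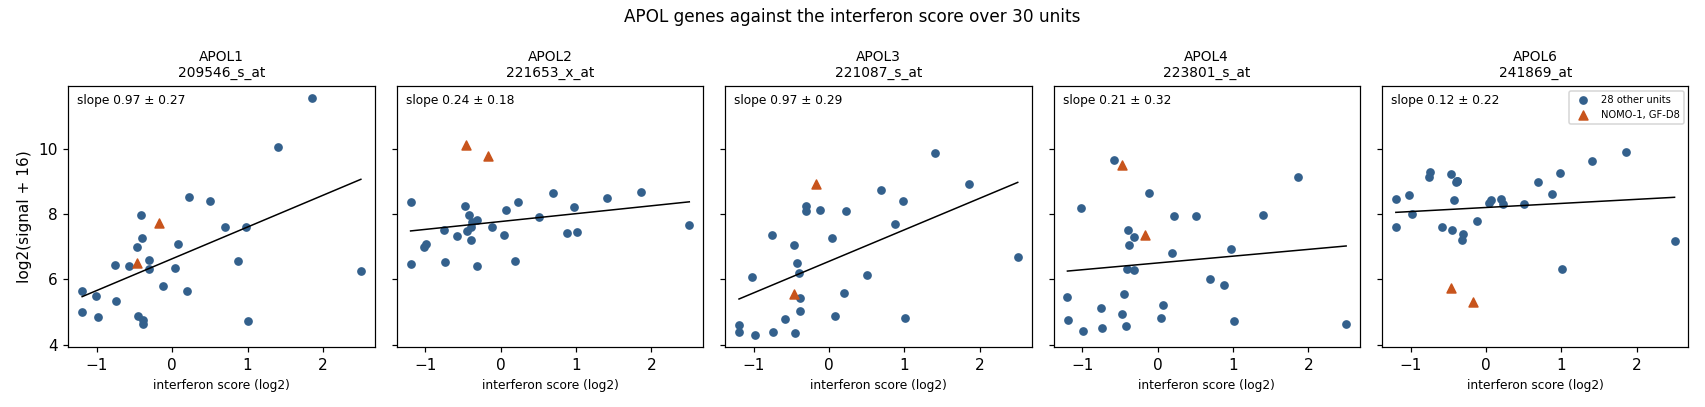
Log2(signal + 16) of each APOL gene (vertical axis, 1 panel per gene) against the interferon score in log2 units (horizontal axis) over 30 units, with NOMO-1 and GF-D8 as triangles and the limma slope ± SE as a line. The slope is 0.97 for APOL1 and for APOL3 and lies between 0.12 and 0.24 for the others, and the point farthest to the right in each panel is KMOE-2, which lies below the line for APOL1 and APOL3.

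Gene by gene, APOL1 correlated positively with 43 of the 48 interferon genes, with a median r of 0.309 against 0.023 over all genes, and above 0.5 with 10 of them. Over all genes 54.5% correlated positively with APOL1 and 1.06% above 0.5. APOL3 was similar, with 43 positive (54.0% over all genes), a median of 0.300 against 0.023, and 11 above 0.5 (1.055% over all genes). For APOL4 the median was 0.054 against 0.044 over all genes, with 29 positive and 0 above 0.5, and IFITM1, which blocks virus entry, had its highest value at 0.399. Over all genes 56.2% correlated positively with APOL4 and 1.11% above 0.5, so 29 of 48 lay near the share of all genes. APOL2 had a median of 0.152 against 0.106 and APOL6 of 0.012 against −0.074. Among the 48 genes the highest mean r with the members was held by IRF1, a transcription factor that interferon gamma induces, at 0.651 with APOL1, 0.437 with APOL3, 0.572 with APOL6 and 0.256 with APOL4. GBP1, a guanylate-binding protein active against intracellular microbes, stood at 0.605 with APOL1, 0.648 with APOL3 and 0.263 with APOL4. SAMD9L reached 0.703 with APOL1 and 0.185 with APOL4, and the peptide transporter gene TAP1 0.607 and 0.186.

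Of the 48 interferon genes, 29 had a positive slope on PIM1, with a median of 0.03 against −0.004 over all genes, and 0 were called by limma. Over all genes 47.5% had a positive slope. The largest positive slopes were those of IFITM1 at 0.50 ± 0.19, RSAD2 at 0.35 ± 0.14, CMPK2 at 0.33 ± 0.16 and GBP1 at 0.29 ± 0.18. The most negative were those of OAS2 at −0.28 ± 0.12, HERC5 at −0.24 ± 0.15, MX1 at −0.22 ± 0.14 and IFI44L at −0.15 ± 0.17. PIM1 correlated with the interferon score at 0.111, which was 0.338 without KMOE-2 and 0.008 without OCI-M1, units chosen after seeing the data.

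Lineage scores described the members further, with no test. APOL3 correlated at 0.486 with the erythroid score, 0.499 with the megakaryocyte and platelet score and −0.500 with the neutrophil granule score. APOL1 stood at 0.449, 0.241 and −0.327, and APOL4 at 0.360, 0.354 and −0.397. APOL6 stood at −0.203, −0.342 and 0.055, the last too small for its sign to be read. These APOL6 values are from the main probe set, which read low in NOMO-1 and GF-D8, with both arrays included. PIM1 had the same signs as APOL4, at 0.430, 0.318 and −0.556.

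The cytokine comparison set 4 lines with an added cytokine against 23 units whose medium names none. Limma called 0 of 15455 genes (0%), and 878 (5.68%) had an unadjusted p under 0.05. APOL4 read 7.95 in F-36P, 4.57 in OCI-AML2, 7.06 in OCI-AML5 and 5.14 in OCI-AML3, against 4.41 to 9.65 with a median of 6.00 in the units with none named. The groups overlapped, and the difference was −0.26 ± 0.87 (limma, adjusted p = 0.973). APOL1 read 8.41, 7.96, 4.62 and 6.44 in the same 4 lines, against 4.73 to 11.56, a difference of 0.17 ± 0.87. APOL6 read 8.32, 8.44, 9.01 and 9.15, against 5.31 to 9.92, a difference of 0.61 ± 0.60, and the differences were −0.06 ± 0.48 for APOL2 and −0.33 ± 0.91 for APOL3. F-36P grew in RPMI 1640 and the other 3 lines in alpha-MEM, so cytokine, medium and line cannot be told apart.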

How the data were processed

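Total RNA of 32 AML cell lines was measured on Affymetrix arrays, 1 per line, and the values used are the deposited probe set intensity on a linear scale. Per the submitters' processing notes the authors used Affymetrix Expression Console, and its version and the summarization method are not given in the sources used here. With the top and bottom 2% of probe sets trimmed, every array had a mean of 499.9, so the deposited values carry a global scaling. All value columns matched a sample, and 0 were left unused. The medium entry written KG1 with a question mark was read as KG-1A.

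Signals were taken as log2(signal + 16). Genes were named from the platform's annotation for probe sets of 1 symbol, updated through gene IDs, and the probe set with the highest mean stood for its gene. Genes above the overall median in at least 3 units were tested: 15455 in the cytokine comparison, and fewer where a predictor or a score's own genes were left out. R 4.3.3 with limma 3.58.1 (lmFit, then eBayes with a trend) gave slopes over 30 units and the cytokine difference, two-sided, with Benjamini-Hochberg adjustment over all genes and a threshold of 0.05. Each fit was tested on simulated data with 200 changed genes. A score is the mean over a list of log2 levels centred per gene. Python 3.11.15 with pandas 2.3.3, numpy 2.4.6 and matplotlib 3.10.9 gave correlations and plots. Errors after a ± sign are SE. With 1 array per line and no replicate cultures, p-values reflect differences among lines only, and precision is limited by how many arrays there were.

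Besides the members and PIM genes, the text names the 3 genes most like each member, all measured chromosome 22 neighbours and, of the interferon list, the 4 highest and 4 lowest slopes on PIM1 and the 4 highest mean r with the members. The members and lists were chosen with earlier results of these data known. Alternatives were quantile normalization, median centring, pseudocounts of 1 and 64, no filter, 32 separate arrays, other probe sets, sets of arrays left out, RPMI 1640 lines alone, covariates and each unit left out in turn.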

Additional observations from a re-analysis of the deposited data

How the results depend on the processing

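Counts of called genes moved with the processing, and the cause was not tested. For the PIM1 slope, 1 gene was called as reported, 3 with quantile normalization, 3 with a pseudocount of 1, 2 with median centring, 2 with 32 separate arrays, 2 without NOMO-1 and GF-D8, 2 without the 8 arrays of high GAPDH ratio, 0 over RPMI 1640 lines alone (fewer units), and 1 to 3 when each unit was left out in turn. For the PIM2 slope the 229 calls became 1737 with quantile normalization, 4087 with median centring, 123 without the 8 arrays, 16 with the GAPDH ratio as covariate, 0 in RPMI 1640 and 0 to 404 leaving out each unit. For the PIM3 slope the 88 calls became 1056, 46, 0, 0 and 0 under the same settings, 22 with no filter, 540 with 32 arrays, 31 without NOMO-1 and GF-D8 and 3 to 403 leaving out each unit. For the interferon score the 91 calls became 213, 872, 0, 35 and 1 under the first 5 settings, 55 with a pseudocount of 1, 211 with 32 arrays and 31 to 193 leaving out each unit. The cytokine count was 4 without the 8 arrays and 0 to 1 leaving out each unit, and it was not run for RPMI 1640 lines alone, for which no cytokine is named. Signs of small, uncalled effects also turned. The PIM2 slope turned to 0.1397, 0.1905 and 0.0539 for APOL2 (without NOMO-1 and GF-D8, without the 8 arrays, with the covariate), to −0.0325 and −0.0130 for APOL6 under the first pair of these and −0.0752 on 1557116_at, and to −0.1711 for APOL4 on 224491_at. The PIM3 slope turned to −0.1868 with median centring and −0.0468, −0.3637 and −0.2893 under the same 3 settings for APOL2, and to 0.6523, 0.1035, 0.2006 and 0.0267 for APOL6, with 0.2412 on 1557116_at. The interferon slope turned to −0.1207 for APOL2 on 221013_s_at and −0.1381 for APOL4 on 224491_at. The cytokine difference turned to 0.0438, 0.1405, 0.2294 and 0.2105 for APOL2 under the 4 settings, 0.2368 on 221013_s_at, and −0.0100 for APOL6 on 219716_at. Leaving out each unit gave, for the cytokine difference, −0.3508 to 0.9127 for APOL1, −0.1249 to 0.0439 for APOL2, −0.6961 to 0.0785 for APOL3 and −0.8510 to 0.2758 for APOL4. It gave PIM2 slopes of −0.2878 to 0.0661 for APOL2 and −0.0240 to 0.3348 for APOL6, PIM3 slopes of −0.0392 to 0.3232 for APOL2 and −0.3320 to 0.0927 for APOL6, and interferon slopes of −0.0146 to 0.5800 for APOL4 and −0.0211 to 0.3337 for APOL6. Levels near a signal of 16 had little signal over background.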
